A study of Rattus norvegicus with 24 samples.

Results

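The basal portion of the spiral ganglion of hearing Sprague-Dawley rats was compared between postnatal day 60 (P60) and postnatal day 32 (P32), to ask which genes differ between the juvenile and the young adult ganglion when hearing is intact. The comparison holds 3 samples at each age, chosen by their labels, which is 6 of the 24 samples of the series. The hearing rats were uninjected littermates of rats that had received kanamycin, an aminoglycoside antibiotic that kills hair cells, and both sexes were used. Each sample is a biological replicate of 4 to 6 ganglia, dissected out of the bony capsule, freed of the spiral ligament and the organ of Corti, and cut into an apical and a basal portion. The labels do not say how many animals of each sex a pool held. The other groups used here are the hearing apex, cut from the same ganglia, and the base of rats deafened with kanamycin at 400 mg/kg daily from P8 to P16, each with 3 samples per age.

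The spiral ganglion holds the cell bodies of the neurons that carry sound from the hair cells to the brainstem, wrapped by Schwann cells and satellite glia and lying in the bony core of the cochlea. The base of the cochlea codes high frequencies. Rat hearing begins in the second postnatal week, so both ages lie after the onset of hearing, in the growth from juvenile to young adult. In such pooled tissue, fewer cells of a type and less RNA per cell cannot be told apart.

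RNA was amplified, labelled with Cy3 and measured on 1-colour arrays. All levels below are log2 of the deposited intensity, and all differences are P60 minus P32 in log2 units with the standard error (SE) of limma, a linear model fitted across 5750 named genes. Each sample of the series had a median intensity between 1997 and 2263 on the linear scale, and precision is limited by how few arrays there are. Of the variation over genes among the 6 basal samples, age accounted for 14.0%, the replicate number for 61.1% and the remainder for 24.9%. These shares hold 1, 2 and 2 degrees of freedom. Per degree of freedom, age was 1.13 times the remainder, so close to its level, and the replicate number 2.46 times. Correlations between a P32 and a P60 sample of the same number were 0.929 to 0.976, against 0.884 to 0.926 within P32 and 0.902 to 0.948 within P60. In each group replicate 1 was on one array platform and replicates 2 and 3 on another, so the ages are balanced over the platforms, and platform was a term of the fit. A sample outside the comparison, P32 hearing apex replicate 1, stood apart in Alox15. The Alox15 values and the total counts of genes of each test are given with and without it. Counts within gene lists are given with it only.

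The labelled tissue was checked against its neuron and glial genes. Snap25, which drives vesicle fusion at nerve endings, stood at 14.49, 14.57 and 14.82 at P32 and at 14.92, 14.99 and 15.09 at P60. The 31 tested neuron identity genes had mean levels between 11.99 and 12.42 in the 6 samples, with a lowest single value of 7.74, and a median difference of 0.0020, with 16 higher and 15 lower. The 27 Schwann cell and myelin genes were split 14 to 13.

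No gene passed an adjusted p of 0.05 by limma with Benjamini-Hochberg adjustment, which is 0 of 5750 genes or 0%, and the smallest adjusted p was 0.267, for Alox15. At an unadjusted p under 0.05 there were 71 genes (1.23%), of which 21 were higher (0.365%) and 50 lower at P60 (0.87%). Without P32 hearing apex replicate 1 there were 88, of which 28 were higher and 60 lower. With the replicate number as a block, 0 genes passed the adjusted threshold and 144 (2.5%) had an unadjusted p under 0.05. That number was 238 without P32 replicate 3 and 45 without P60 replicate 1. The median SE of a gene was 0.371 and its 95% interval reached a median of 0.780 log2 units to either side. With 3 samples an age, smaller differences of a typical gene would not reach even an unadjusted p of 0.05. Differences well above 0.780 could also go uncalled, since a gene called alone needs an unadjusted p under 8.7e-06 by limma. The differences were centred near 0, with 2895 genes higher and 2855 lower and a median of 0.0027. Past 1 log2 unit lay 93 higher and 49 lower genes. The samples of the ages did not overlap for 161 higher genes (2.8%) and 74 lower genes (1.29%). The exact permutation test of 3 against 3 samples cannot go below p = 0.1 for 1 gene, and was not used.

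**Figure D1:**
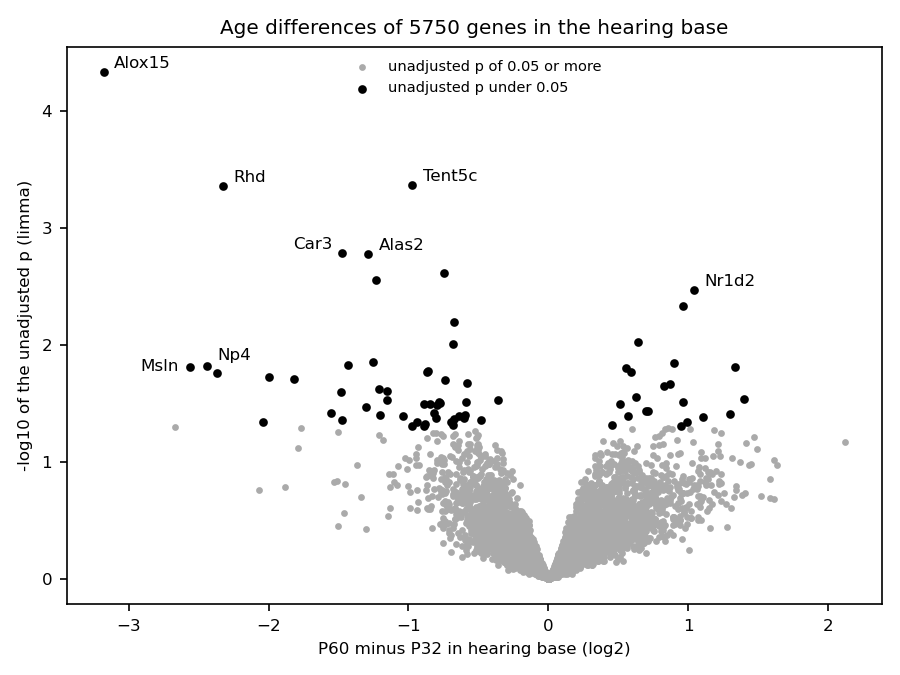
Age difference in the hearing base (x axis, P60 minus P32, log2) against -log10 of limma's unadjusted p (y axis) for 5750 genes, 1 point a gene. The 71 genes with an unadjusted p under 0.05 are black, and Alox15 lies farthest from the others at a difference of -3.18.

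Alox15 had the smallest p of all genes and was lower at P60. It encodes a lipoxygenase that oxidizes arachidonic and linoleic acid, is known from eosinophils and resident macrophages, and in rabbit reticulocytes acts on mitochondria as red cells mature. Its level was 11.57, 11.73 and 12.12 at P32 and 8.34, 8.33 and 9.22 at P60. The ages lay far apart, with the lowest P32 sample above the highest P60 sample and P60 replicate 3 the brightest of its group. The mean was 11.81 ± 0.28 (SD, n = 3) at P32 and 8.63 ± 0.51 (SD, n = 3) at P60, a difference of -3.18 ± 0.59 (95% interval -4.43 to -1.93), a level 9.05-fold higher at P32. The differences of replicates 1, 2 and 3 were -3.24, -3.40 and -2.90. The adjusted p of limma was 0.267, and 0.175 with the replicate number as a block, so the gene was not called.

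The spread that limma used for Alox15 includes P32 hearing apex replicate 1, which stood at 8.27 while the other P32 hearing apical samples stood at 11.79 and 12.63. In that sample Alas2 (12.46) lay among the other P32 samples (12.01 to 13.57), while Msln, mesothelin, an epithelial surface protein, stood at 11.03, above replicates 2 and 3 of its group (8.55 and 7.23). Whether its label is right was not tested. With that sample left out, the SE of the hearing base difference was 0.36 and the adjusted p 0.00066 by limma, and Alox15 was then the 1 gene called. The sample is no part of the contrast and was left out for its Alox15 value, so the size could not change, a smaller SE was bound to follow, and this p is no independent support. Over 23 alternative fits its adjusted p by limma ran from 3.09e-05 to above 0.99, and 3 of them called it. Over the series, the other 11 P32 samples lay between 10.88 and 12.70 and the 12 P60 samples between 7.82 and 9.57. These did not overlap in either condition or portion. The sample left out, at 8.27, lies among the P60 values, so in the hearing apex this rests on leaving it out. The deaf base shares no sample with the hearing base, but the hearing rats were littermates of kanamycin-injected rats. Both differences also take their SE from the same fit of 24 samples, so they are not fully independent. In the deaf base Alox15 fell by 3.67 ± 0.59 (adjusted p = 0.0480 by limma), the 1 gene of 5750 called there (0.0174%). Without P32 hearing apex replicate 1 the SE in the deaf base was 0.36 and the adjusted p 8.43e-05 by limma, where again a smaller SE was bound to follow. Then 2 genes were called there, the other being Gpr83, a G protein-coupled receptor, at 1.96 ± 0.28 (named after its values were seen). In the hearing apex the difference was -2.10 ± 0.59, and -3.18 ± 0.41 without that sample. The age difference in the hearing base minus that in the apex was -1.07 ± 0.84 (adjusted p above 0.99 by limma) and 0.0044 ± 0.55 without that sample, with a 95% interval of -1.15 to 1.16.

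**Figure D2:**
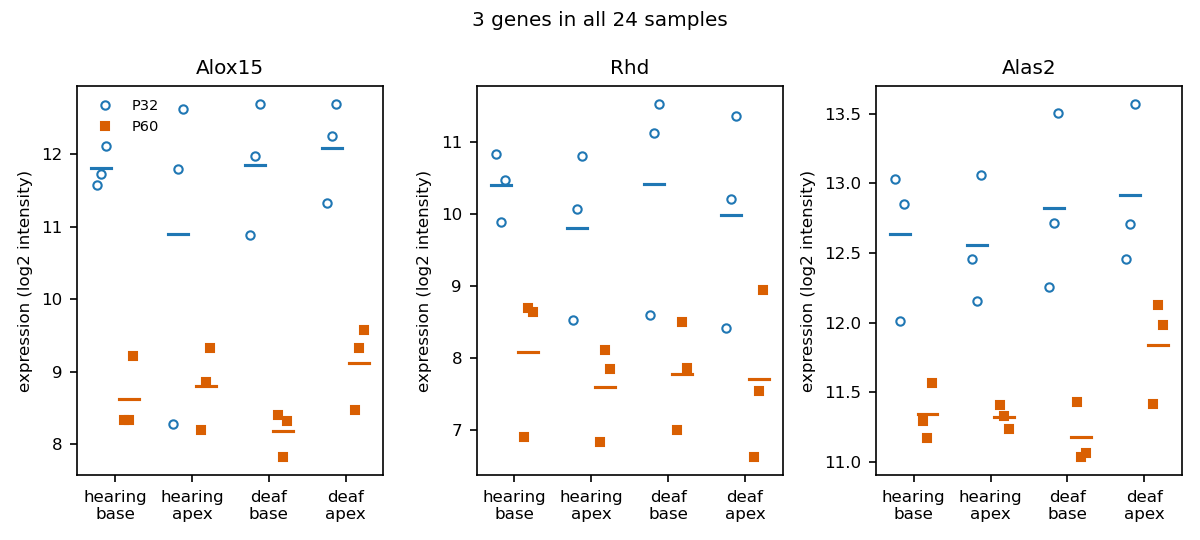
Level (log2 intensity, y axis) of Alox15, Rhd and Alas2 in all 24 samples, by condition and portion (x axis), with open circles for P32, filled squares for P60 and a bar at each mean of 3 samples. The Alox15 samples at P60 lie at or under 9.57 in every group, and 1 P32 hearing apical sample lies among them at 8.27.

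Red cell genes were the other group with the smallest p-values, and the members concerned were lower at P60. Erythroid precursors make heme and haemoglobin, and transcription factors of the GATA family drive many of their genes. Rhd, a membrane protein of the Rh blood group complex of red cells, stood at 10.85, 9.90 and 10.48 at P32 and at 6.90, 8.70 and 8.65 at P60. Every P32 sample was above every P60 sample. P60 replicate 1 was the lowest, below the 1st percentile of its array (145.4 on the linear scale), and whether it stands above background was not tested. The difference was -2.33 ± 0.54 (adjusted p = 0.843 by limma), or -3.95, -1.20 and -1.83 by replicate. Alas2, the enzyme that starts heme synthesis in erythroid cells, stood at 13.03, 12.01 and 12.85 at P32 and at 11.29, 11.17 and 11.57 at P60. Its groups did not overlap either, and the difference was -1.29 ± 0.35 (adjusted p = 0.998 by limma). Slc25a37, mitoferrin, which carries iron into the mitochondria of erythroid cells, ran from 11.06 to 11.29 at P32 and from 10.34 to 10.66 at P60, a difference of -0.67 ± 0.22.

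The promoters of Rhd and Alas2 are shown because these genes lead the erythroid list, and each window holds a GATA motif. The windows run from 250 bases before to 50 after the start of the gene in the RefSeq annotation of build GRCr8, and capitals mark AGATAA, searched on both strands. Rhd lies on chromosome 5 at chr5:152370950-152371249 (plus strand), with the motif starting 72 bases before the gene start. Alas2 lies at chrX:22895200-22895499 (plus strand), with the motif starting 136 bases before it.
Rhd: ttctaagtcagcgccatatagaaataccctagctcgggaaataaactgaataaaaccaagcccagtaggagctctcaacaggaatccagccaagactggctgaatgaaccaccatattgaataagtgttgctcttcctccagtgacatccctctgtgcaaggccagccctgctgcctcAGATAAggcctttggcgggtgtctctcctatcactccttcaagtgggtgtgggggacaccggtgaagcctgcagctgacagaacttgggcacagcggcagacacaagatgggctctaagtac
Alas2: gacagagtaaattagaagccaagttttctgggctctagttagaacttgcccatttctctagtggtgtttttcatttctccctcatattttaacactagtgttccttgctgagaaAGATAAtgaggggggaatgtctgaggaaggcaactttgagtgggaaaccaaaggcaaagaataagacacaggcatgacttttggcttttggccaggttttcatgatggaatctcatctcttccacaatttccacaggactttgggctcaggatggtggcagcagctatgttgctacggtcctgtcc
The motif was in 11.6% of 33469 such windows and in 6.27% of the 5022 windows of genes tested here. Of the 17 tested erythroid and platelet genes 11 had a window in the table, and Rhd and Alas2 are the 2 that hold the motif. A match describes the letters of the window and is not a measured binding site.

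Of those 17 erythroid and platelet genes 12 had a lower and 5 a higher mean at P60, with a median of -0.36. None passed the adjusted threshold, and 5 had an unadjusted p under 0.05, all lower (0.87% of all genes): Rhd, Alas2, Slc25a37 and the β-globin genes Hbb and Hbb-b1, whose like sequences may share probes. Hbb was near the top of the array range, at 15.30, 15.56 and 15.61 at P32 and 14.70, 15.33 and 15.36 at P60, a difference of -0.36 ± 0.15 with overlapping groups. Hbb-b1 differed by -1.04 ± 0.47. In all, 11 of the 17 were lower in 3 of 3 pairs of the same number (9.84% of all genes), and 3 were lower without overlap (1.29% of all genes). The summed linear intensity of the list ran from 223167 to 261042 at P32 and from 165622 to 230932 at P60. Its lowest single log2 value was 6.90, of Rhd in P60 replicate 1. The part of blood or marrow left in the dissected tissue in these differences was not tested.

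Granulocyte genes showed the lowest list median, but 1 pair of samples carried most of it. Of 15 tested neutrophil, mast cell and marrow granulocyte genes, 11 had a lower mean at P60 and the median was -1.45. By replicate the median difference was -3.51, -0.35 and -0.14, so that of replicate 1 was by far the largest. The summed intensity was 55164, 19122 and 29605 in P32 replicates 1, 2 and 3. In P60 replicates 1, 2 and 3 it was 12459, 19957 and 17386, so replicate 1 was the highest at P32 and the lowest at P60. Np4, a defensin of rat neutrophils, stood at 11.45, 9.03 and 8.58 at P32 and at 5.70, 7.94 and 8.10 at P60. Its groups did not overlap, and the highest and the lowest of the 6 values were both of replicate 1. The difference was -2.44 ± 0.91, made up of -5.76, -1.08 and -0.49. Defa5, another defensin, differed by -1.99 ± 0.77, and Prg2, the major basic protein of eosinophil granules, by -1.48 ± 0.68, both with overlapping groups. Lcn2, lipocalin 2, an iron-sequestering protein of neutrophils and inflamed epithelia, was at 13.74 in P32 replicate 3 against 9.34 to 11.53 elsewhere, and differed by -2.04 ± 0.95. These 4 of the 15 genes had unadjusted p-values under 0.05 (0.87% of all genes, lower) and adjusted p-values of 0.998 by limma. The summed intensity of the list was 19122 to 55164 at P32 and 12459 to 19957 at P60. The lowest single log2 value was 5.70, of Np4 in P60 replicate 1, below the 1st percentile of that sample (145.4 on the linear scale). Whether such a value stands above background was not tested.

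Most epithelial genes also had lower means at P60, and here replicate 3 carried the most. Of 19 tested epithelial and cochlear supporting cell genes 12 had a lower mean, with a median of -0.89, and 5 were lower without overlap (1.29% of all genes). Msln, mesothelin, a surface protein of epithelial and mesothelial linings, stood at 11.70, 11.98 and 12.93 at P32 and at 9.12, 9.71 and 10.09 at P60. The lowest P32 sample was more than 1 log2 unit above the highest P60 sample, and the difference was -2.56 ± 0.96 (unadjusted p = 0.0153, adjusted p = 0.998 by limma). Cldn7, a tight junction claudin of epithelia, stood at 8.68, 10.60 and 11.36 at P32 and at 7.37, 8.37 and 7.78 at P60. Its groups did not overlap, with a difference of -2.37 ± 0.90 that ran over the replicates from -1.31 to -3.58. Cldn9, a claudin of the inner ear epithelium, was nearly equal in replicate 1 (9.62 and 9.60) and differed by -1.86 and -2.04 in the others, and Krt8, a keratin of simple epithelia, differed by -0.89 ± 0.38. The median of the list by replicate was -0.35, -0.48 and -1.43. The summed intensity was 86332 to 160892 at P32 and 82955 to 88063 at P60, and the lowest single log2 value was 7.18. All 6 tested hair cell genes had a lower mean at P60, with a median of -0.35, none with an unadjusted p under 0.05 and all with overlapping groups. The part of organ of Corti or lining cells carried into the ganglion in these values was not tested.

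Most bone and cartilage genes had lower means at P60. Of 22 tested bone and cartilage genes 16 had a lower mean, 10 were lower in 3 of 3 pairs (9.84% of all genes), and the median was -0.13. Pth1r, the parathyroid hormone receptor of osteoblasts and growth plate cartilage, stood at 12.89, 13.06 and 13.46 at P32 and at 12.21, 12.23 and 12.59 at P60. Its groups did not overlap, with a difference of -0.80 ± 0.34 (unadjusted p = 0.0324, adjusted p = 0.998 by limma). Bglap, osteocalcin of bone matrix, ran from 14.33 to 14.84 at P32 and from 12.92 to 14.12 at P60, also without overlap, a difference of -0.82 ± 0.51. Alpl, the alkaline phosphatase that mineralizing cells use, differed by -0.87 ± 0.44, and Col2a1, the collagen of cartilage, by -0.51 ± 0.27, each lower in 3 of 3 pairs.

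Of 38 fibroblast, collagen and matrix genes 24 had a lower and 14 a higher mean. Fbn2, a fibrillin of developing elastic fibres, stood at 10.13, 10.29 and 9.72 at P32 and at 8.31, 9.30 and 8.09 at P60. Its groups did not overlap, and the difference was -1.48 ± 0.61 (unadjusted p = 0.0255, adjusted p = 0.998 by limma). Eln, elastin, stood at 8.33, 8.53 and 9.96 at P32 and 8.37, 7.05 and 7.77 at P60, so that replicate 1 differed by 0.04 and the mean by -1.21 ± 0.49. Fmod, fibromodulin, which binds collagen fibrils, differed by -0.95 ± 0.52 but by 0.76 in replicate 1. Loxl1, a cross-linker of elastin, differed by -0.77 ± 0.43.

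The other genes with the smallest p-values among the lower ones were of several kinds, and limma gave those named here adjusted p-values of 0.843 or more. Tent5c, a poly(A) polymerase known in plasma cells, stood at 9.98, 10.42 and 10.68 at P32 and at 9.27, 9.17 and 9.72 at P60, without overlap, a difference of -0.97 ± 0.23. Car3, the carbonic anhydrase of skeletal muscle and fat, stood at 11.07, 11.81 and 11.88 at P32 and 8.86, 11.17 and 10.30 at P60. It was lower in 3 of 3 pairs although P60 replicate 2 lay above P32 replicate 1, and the difference was -1.47 ± 0.40. The 16 muscle and tendon genes had a median of -0.13 and the 9 adipocyte genes one of -0.053, and Car3, which is in both lists, was the 1 member of each with an unadjusted p under 0.05.

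Chit1, a chitinase of macrophages, differed by -1.23 ± 0.35 and Lbp, which binds bacterial lipopolysaccharide, by -1.25 ± 0.46, both without overlap. The 27 macrophage and microglia genes as a list had a median of 0.054, with 16 higher and 11 lower. Cited1, a transcriptional coactivator, was at 9.51 to 9.64 in the P60 samples and at 10.39 to 11.62 in the P32 samples, a difference of -1.43 ± 0.53. Ccn4, a matricellular protein induced by Wnt signalling, differed by -0.75 ± 0.21, and in each age its replicate 1 lay more than 1 log2 unit below the others. Ccdc8, a member of the 3M growth complex, differed by -0.68 ± 0.24.

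**Figure D3:**
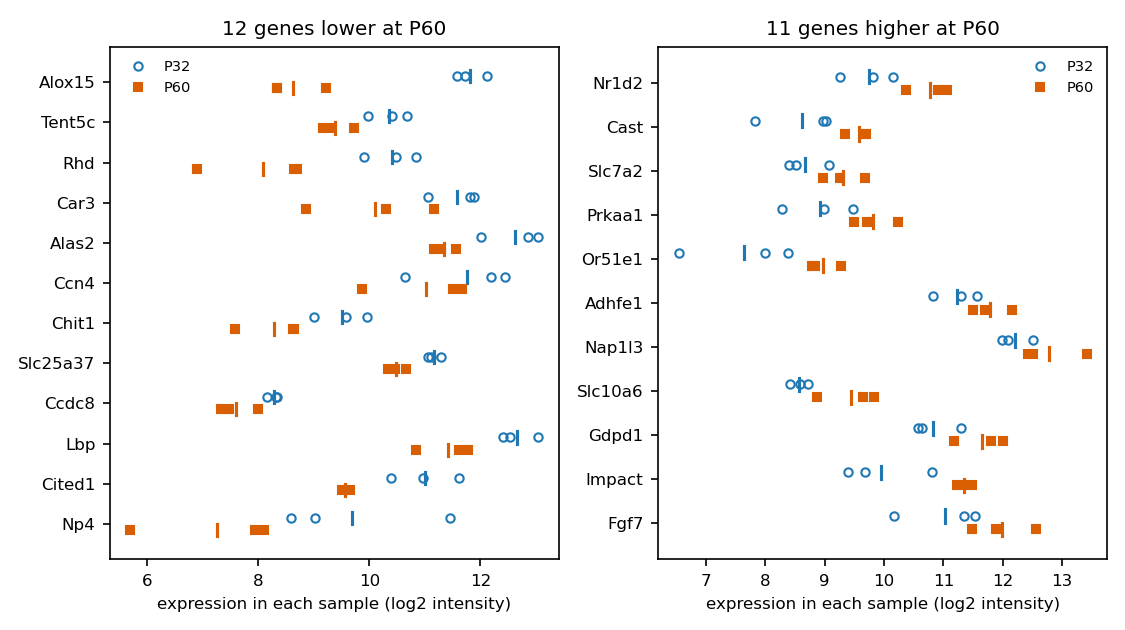
Level in each of the 6 samples (log2 intensity, x axis) of 12 lower and 11 higher genes with the smallest p in the hearing base, with open circles for P32, filled squares for P60 and a bar at each mean of 3 samples. Alox15 is the gene with the widest gap between its groups, from 9.22 to 11.57, while Car3, Ccn4, Slc7a2, Adhfe1, Nap1l3, Gdpd1 and Fgf7 overlap.

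Among higher genes the smallest p was that of Nr1d2, the nuclear receptor Rev-erb β, a repressor in the circadian clock. Nr1d2 stood at 9.82, 9.25 and 10.15 at P32 and at 10.90, 10.37 and 11.06 at P60. Each P60 sample was above every P32 sample, and the replicates differed by 1.09, 1.12 and 0.91. The difference was 1.04 ± 0.31 (unadjusted p = 0.00337, adjusted p = 0.998 by limma), a level 2.05-fold higher at P60. Bhlhe40, another repressor of the clock, was higher without overlap by 0.70 ± 0.52, and Nfil3, a repressor that opposes the PAR bZIP factors of the clock, was lower without overlap by 0.68 ± 0.34. The list of 20 circadian clock and glucocorticoid-responsive genes had a median of 0.027 with 12 higher and 8 lower. The time of day at which tissue was taken is not given in the labels, and its part in these values was not tested.

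The other higher genes with the smallest p-values include enzymes, carriers and signalling genes, with adjusted p-values of 0.998 by limma. Cast, calpastatin, the inhibitor of the protease calpain, differed by 0.96 ± 0.30 without overlap, and by 1.86, 0.67 and 0.36 in replicates 1, 2 and 3. Prkaa1, a catalytic subunit of the energy sensor AMPK, stood at 9.48, 8.28 and 8.99 at P32 and 10.24, 9.72 and 9.49 at P60, and differed by 0.90 ± 0.33. The gap between its groups was narrow, since P60 replicate 3 (9.49) was just above P32 replicate 1 (9.48). Impact, an inhibitor of the amino acid sensor GCN2, ran from 9.39 to 10.81 at P32 and from 11.23 to 11.49 at P60, a difference of 1.39 ± 0.59.

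Slc10a6, a steroid sulfate carrier, differed by 0.87 ± 0.35 and Or51e1, an olfactory receptor gene, by 1.33 ± 0.50, both without overlap. Fgf7, a growth factor made by mesenchyme for epithelia, differed by 0.96 ± 0.41, and Slc7a2, a carrier of cationic amino acids, by 0.64 ± 0.22. Gdpd1, a lysophospholipase D, differed by 0.83 ± 0.33, Nap1l3, of the nucleosome assembly protein family, by 0.59 ± 0.22, and Adhfe1, a mitochondrial transhydrogenase, by 0.55 ± 0.21. The groups of Fgf7, Slc7a2, Gdpd1, Nap1l3 and Adhfe1 overlapped, although each was higher in 3 of 3 pairs.

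Transmitter receptor genes had the highest list median. Of 20 tested genes for glutamate, GABA, glycine and acetylcholine receptors 17 had a higher mean at P60, the median was 0.36, and 5 were higher without overlap (2.8% of all genes). None had an unadjusted p under 0.05. Glrb, the β subunit that anchors glycine receptors, stood at 11.24, 8.87 and 11.60 at P32 and at 12.85, 11.62 and 12.15 at P60. The lowest P60 sample was just above the highest P32 sample, and the difference was 1.64 ± 0.96. Grik2, a kainate receptor subunit, differed by 0.57 ± 0.45, and Grm8, a presynaptic metabotropic glutamate receptor that is also among the neuron identity genes, by 0.36 ± 0.28. The Grm8 value was 0.093 without P32 replicate 1 and 0.54 without P32 replicate 2. The median by replicate was 0.80, 0.10 and 0.30, and the summed intensity was 21991 to 24584 at P32 and 24471 to 43420 at P60.

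Of 31 presynaptic genes 19 had a higher and 12 a lower mean, with a median of 0.050. Pclo, piccolo, a scaffold of the active zone, stood at 8.18, 7.15 and 7.93 at P32 and at 9.11, 8.32 and 8.78 at P60. Its groups did not overlap and its replicates differed by 0.93, 1.17 and 0.86, with a mean of 0.99 ± 0.46 (unadjusted p = 0.0452, adjusted p = 0.998 by limma). Snap25 was higher without overlap by 0.37 ± 0.27. Slc17a6, a vesicular glutamate transporter, differed by 1.20 ± 0.73, and by 2.27, 0.56 and 0.75 in replicates 1, 2 and 3. Among 30 potassium channel genes, 16 of which were higher, Kcnk2, a mechanically gated background channel, differed by 0.94 ± 0.51 without overlap and Kcnab1, a β subunit of voltage-gated channels, by 1.03 ± 0.66 with overlap. The Kcnk2 value rested on replicate 1, since it was 2.28 there and 0.14 and 0.41 in the others, and 0.30 without P32 replicate 1.

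Of the Schwann cell and myelin genes, Egr2, the factor that drives peripheral myelination, stood at 9.06, 9.06 and 9.61 at P32 and at 10.70, 9.73 and 10.50 at P60. It was higher without overlap, by 1.07 ± 0.80 (unadjusted p = 0.196). Drp2, which links the myelin sheath to the basal lamina, was higher without overlap by 0.54 ± 0.50, and Gldn, gliomedin of the nodes of Ranvier, differed by 0.36 ± 0.32 with overlap. Egr2 and Drp2 are the 2 of 27 such genes without overlap, or 7.41%, beside 2.8% of all genes.

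Most genes of the ribosome, cell cycle and growth signalling lists had lower means at P60. Of 63 cytosolic ribosome genes 62 had a lower mean at P60, 33 were lower in 3 of 3 pairs (9.84% of all genes), and the median was -0.20. The median was -0.41 in replicate 1 and -0.06 and -0.07 in the others. Rpl28 differed by -0.38 ± 0.20 and Rpl13 by -0.42 ± 0.25, both with overlapping groups, and no ribosome gene had an unadjusted p under 0.05. Of 30 cell cycle genes 22 had a lower mean, with a median of -0.30. By replicate the cell cycle median was -0.52, 0.10 and -0.09, so replicate 1 carried most of it and replicate 2 went the other way. Ccna2, cyclin A2, stood at 9.89, 8.49 and 9.23 at P32 and 7.72, 7.93 and 9.12 at P60, a difference of -0.94 ± 0.53. Cdc25b, a phosphatase that starts mitosis, differed by -0.37 ± 0.20. Of 26 Wnt, BMP, activin and Notch genes 19 had a lower mean, and Fst, follistatin, an activin antagonist, differed by -0.64 ± 0.33 without overlap.

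Of 33 cholesterol and fatty acid synthesis genes 19 had a lower and 14 a higher mean, with a median of -0.053. Tm7sf2, a sterol reductase, stood at 12.61, 12.18 and 12.33 at P32 and at 11.81, 11.42 and 12.11 at P60, and was lower by 0.60 ± 0.27 without overlap (unadjusted p = 0.0398, adjusted p = 0.998 by limma). Fads2, a desaturase of polyunsaturated fatty acids, lay between 9.72 and 9.87 at P32 and between 9.11 and 9.33 at P60, also lower without overlap, by 0.58 ± 0.30. Me1, malic enzyme, which supplies NADPH, was higher without overlap by 0.39 ± 0.20. Of 30 trophic factor genes 20 had a lower mean, but the median by replicate was 0.13, -0.40 and 0.03. Igfbp2, which binds insulin-like growth factors, was lower by 0.38 ± 0.23, and Bdnf, a neurotrophin that supports these neurons, differed by -1.11 ± 0.69, from -2.78 to 0.28 by replicate.

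**Figure D4:**
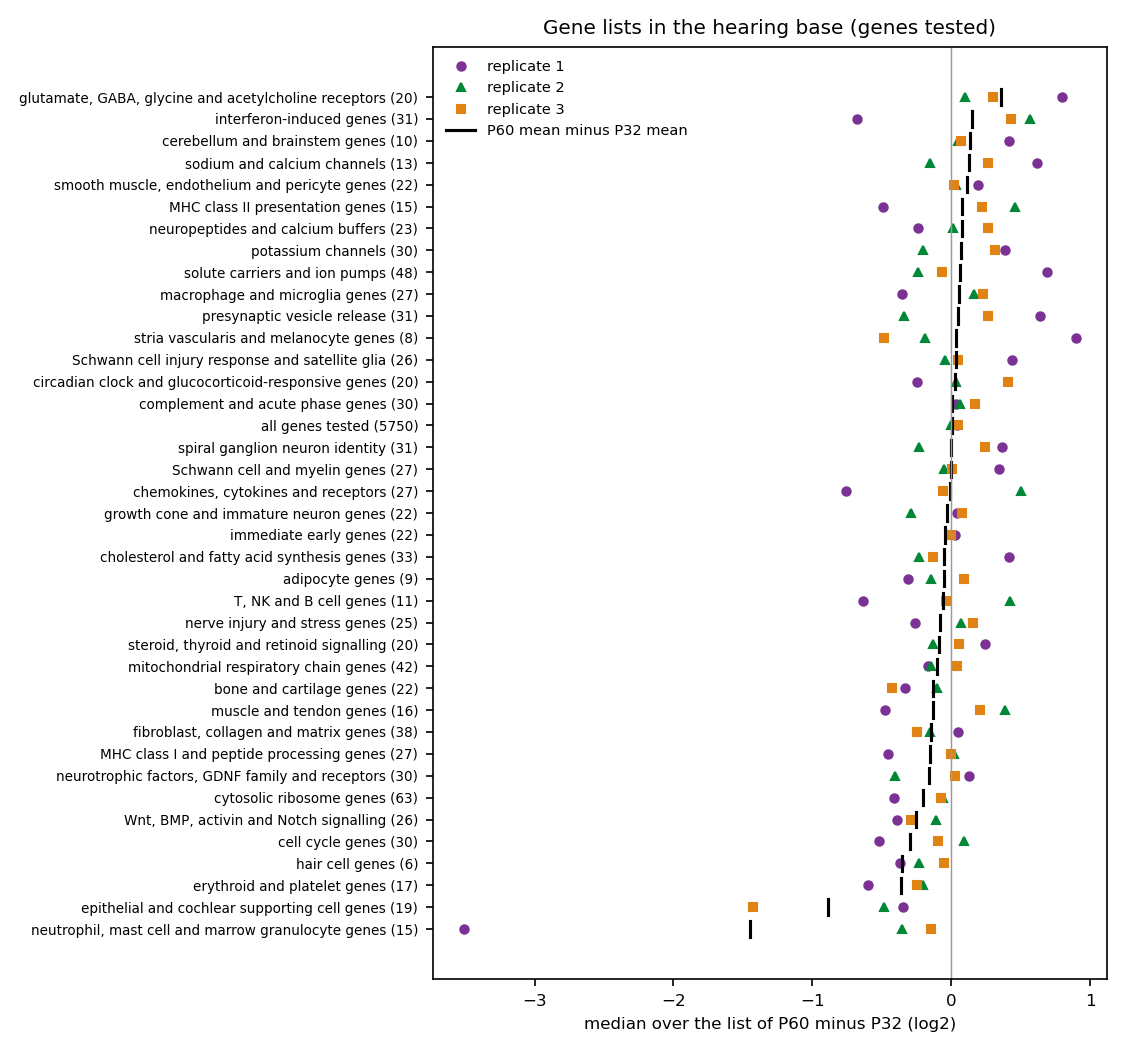
Median over each gene list of the P60 minus P32 difference in the hearing base (log2, x axis), for each replicate number (coloured symbols) and for the group means (black bar), with the number of tested genes in parentheses. The granulocyte list has the lowest median (-1.45), with replicate 1 at -3.51, and the receptor list the highest (0.36).

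The age differences of the leading genes in the hearing base were set beside those of the hearing apex and the deaf base. Of the 12 lower genes with the smallest p, 12 had a lower P60 mean in the hearing apex and 11 in the deaf base. Of 11 higher ones, 10 had a higher mean in the apex and 9 in the deaf base. The share of all genes with the same direction was not computed, so these counts cannot be set against it. Apical and basal portions come from the same ganglia and are not independent. Rhd differed by -2.33 ± 0.54, -2.21 ± 0.54 and -2.64 ± 0.54 in hearing base, hearing apex and deaf base, and Alas2 by -1.29, -1.24 and -1.65 (SE 0.35 each). Slc25a37 differed by -0.67 and -0.70 in the hearing and the deaf base and by -0.05 in the apex (SE 0.22 each). Slc10a6 differed by 0.87 and 0.84 in the bases and by -0.20 in the apex (SE 0.35 each). In the test of the difference between regions or conditions none of these genes passed, and the adjusted p-values of limma were all above 0.99.

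**Figure D5:**
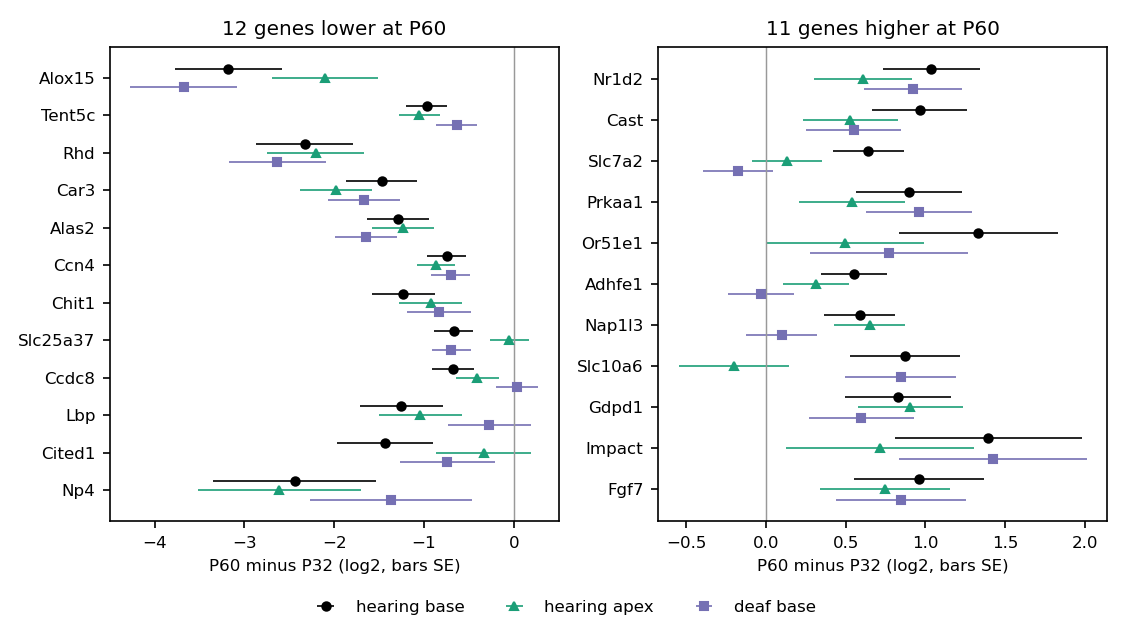
Age difference (P60 minus P32, log2, x axis) of 12 lower and 11 higher genes with the smallest p in the hearing base, for the hearing base (black circles), hearing apex (green triangles) and deaf base (purple squares), with bars for the SE of limma. Most points of a gene lie on the same side of 0, and the exceptions are Slc10a6 in the apex (-0.20) and Slc7a2 (-0.17), Adhfe1 (-0.03) and Ccdc8 (0.04) in the deaf base.

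Across all genes the test of the age difference in the hearing base minus that in the hearing apex called 0 of 5750 genes, and 57 (0.991%) had an unadjusted p under 0.05, all of them positive. That fit did not model that the apical and basal portions come from the same ganglia. With a random block of age, condition and replicate number for this pairing, 254 genes had an unadjusted p under 0.05. It called 0 genes, and the smallest adjusted p was 0.595 by limma. With the replicate number alone as a block there were 90. Without a block and without P32 hearing apex replicate 1 there were 27, of which 19 were positive. Leaving out P32 hearing apex replicate 2 or 3 or P60 hearing apex replicate 2 gave 183, 100 and 102. In the main fit, which had no block, Slc22a8, an organic anion carrier, had the smallest p. It differed by -0.04 ± 0.31 in the hearing base and by -1.72 ± 0.31 in the apex. The difference of the differences was 1.68 ± 0.44 (unadjusted p = 0.00142, adjusted p above 0.99 by limma), and 1.24 ± 0.38 without P32 hearing apex replicate 1. Fabp7, a fatty acid binding protein of glia, differed by -0.04 ± 0.41 in the hearing base and by -1.99 ± 0.41 in the apex, and Mog, a protein of central myelin, by -0.23 ± 0.53 and -2.60 ± 0.53. In the hearing base the 95% interval of Fabp7 was -0.89 to 0.82. The difference of the differences was 1.96 ± 0.58 for Fabp7 and 2.37 ± 0.76 for Mog, and 1.77 ± 0.62 and 1.97 ± 0.78 without P32 hearing apex replicate 1. The list of 10 tested cerebellum and brainstem genes, which holds Mog, moved the same way, with a median of 0.13 in the hearing base (3 lower) and -1.88 in the hearing apex (9 lower). By replicate the apical median was -2.67, -0.31 and -1.57. Its summed intensity in the apex was 85931, 47104 and 50875 at P32 and 34256 to 38220 at P60. In the hearing base it was 57962 to 78220 at P32 and 62636 to 78625 at P60. The lowest single log2 value was 6.38 in the apex and 7.33 in the hearing base. The part of brainstem or cerebellar tissue in these differences was not tested. Other lists also had lower medians in the hearing apex than in the hearing base. These were -0.92 against 0.081 for MHC class II, -0.86 against 0.054 for macrophage and -0.89 against -0.062 for T, NK and B cell genes. The presynaptic (0.57 against 0.050) and interferon-induced (0.46 against 0.15) lists had higher apical medians.

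The same test against the deaf base called 0 genes, and 17 (0.296%) had an unadjusted p under 0.05, or 38 with the block. Without P32 hearing base replicate 1 there were 40, and without replicate 1 of the deaf base at P32 or P60 there were 33 and 27, as also 27 without P32 hearing apex replicate 1. Gfra1, a receptor for GDNF, differed by -0.28 ± 0.25 in the hearing base and by 1.01 ± 0.25 in the deaf base, a difference of -1.29 ± 0.35 (unadjusted p = 0.00172, adjusted p above 0.99 by limma). Hspb1, a small heat shock protein that injured neurons induce, stood at 12.68, 13.08 and 12.96 at P32 and at 11.53, 12.71 and 12.09 at P60 in the hearing base. It differed there by -0.80 ± 0.41 (unadjusted p = 0.0659, and 0.0193 without P32 hearing apex replicate 1) and in the deaf base by 0.92 ± 0.41, a difference of -1.72 ± 0.58 (unadjusted p = 0.0081, adjusted p above 0.99 by limma).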

How the data were processed

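Spiral ganglion RNA of 24 samples in 8 groups of 3 was measured on 1-colour arrays of 2 platforms. The deposited values are intensity values on a linear scale, normalized by the authors with RMA, per the submitters' processing notes, which give no version. Technical replicates were averaged by the authors into 1 value per sample, per the labels. The labels do not say whether the platforms were normalized together. The plan assumed log2 values, so log2 was taken here. The table holds 14138 transcripts, of which 5828 were named through RefSeq (assembly GRCr8). For the 61 genes with several transcripts the one with the highest mean was used, which left 5750 genes.

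The tests were made in limma 3.58.1 (R 4.3.3) over all 24 samples, with 8 group means and platform as an additive term (15 residual degrees of freedom), two-sided, with Benjamini-Hochberg adjustment over all genes and a threshold of 0.05. The labels do not say whether replicates share a litter or a day, so p-values cover only the spread between these samples.

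The comparison, the gene lists and the tests were chosen with earlier results of these data known. Named genes are the 12 called genes with the largest difference in each direction, filled by smallest p where fewer were called, leaving out locus, predicted and pseudogene names, with up to 4 members of each list by smallest p and the 6 genes of smallest p in each difference of age differences. A part of them is printed, and some are not reported here. Hbb-b1 was named after its values were seen.

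Samples of the same number deviated together from their group means, with correlations over genes of 0.204, 0.495 and 0.507. After the platform term these were -0.600, 0.309 and 0.600. The number is tied to the platform, and the animals of the ages differ. Pairs of the same number are therefore a description, and the main fit had no replicate block. No 2 of the 6 samples shared an identical value. Alternatives covered the platform and replicate terms, the samples in the fit, normalization, dim genes, the rows of a gene, the platform tables and the prior. Promoter windows are from RefSeq.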

Additional observations from a re-analysis of the deposited data

How the results depend on the processing

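The count of genes called in the hearing base stayed at 0 under most alternatives. It was 1 without P32 hearing apex replicate 1 (Alox15, adjusted p = 0.00066 by limma). In fits added after seeing the data it was 1 with the replicate number as a block and that sample left out (Alox15, adjusted p = 3.09e-05), and 2 within the 16-sample platform with the block (Alox15, -3.15, adjusted p = 0.000349, and Ccl11, 2.26). Leaving out each of the 6 basal samples in turn gave 0 to 0 calls. The replicate block over all samples left the count at 0 and changed no other call, and moved the genes with an unadjusted p under 0.05 from 71 to 144. That number was 33 without the platform term, 44 without the dimmest 25% of genes, 139 over every transcript, 161 in the platform tables, 160 and 181 in the added fits with the block, 266 in a blocked fit of the 6 samples alone, and 45 to 238 with 1 basal sample left out. Both tests of a difference of age differences called 0 genes in every fit run. Against the apex 15 to 254 unadjusted p-values were under 0.05 (57 in the main fit, 254 with the random block). Against the deaf base 6 to 222 were (17 in the main fit). Of 1631 values of 69 printed genes under the alternatives, 1613 kept their direction and their side of the threshold. Much of this was fixed beforehand and does not measure stability. The ages are balanced, so changing the platform term, the block or samples outside the comparison cannot move a difference. No gene was called in the main fit, and most adjusted p-values lay far from the threshold. On the 8-sample platform, which holds 1 sample per group, the direction was reversed for Eln (0.041), Fmod (0.758), Bdnf (0.275), Ccl11 (-1.63), Gfra1 (0.067), Mog (0.169), Fabp7 (0.031) and Slc22a8 (0.556). With each basal sample left out in turn, 3 genes with differences near 0 took both signs: Slc22a8 ran from -0.253 to 0.243, Mog from -0.547 to 0.011 and Fabp7 from -0.198 to 0.104. The cause was not tested. Leaving out 1 basal sample moved the difference of 30 of the 69 genes by over 1.5 times or turned its sign. Of 456 list medians under the alternatives 21 moved by more than the spread of the 3 pairs. The number of arrays limits all of these values, and whether dim values stand above background was not tested.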

Other observations

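The medians of the interferon-induced and MHC class II lists differed in direction between replicates. So did those of other lists, the neuron identity, presynaptic, potassium channel and macrophage lists among them. Of 31 interferon-induced genes 19 had a higher mean at P60, with medians of -0.68, 0.57 and 0.43 in replicates 1, 2 and 3. The 15 genes of MHC class II presentation had a median of 0.081, with -0.49, 0.46 and 0.23 by replicate. The 27 genes of MHC class I and peptide processing had a lower mean in 24 cases, with a median of -0.15. By replicate their median was -0.45, 0.023 and -0.0027, so replicate 1 carried it. No member of these lists had an unadjusted p under 0.05 by limma.

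Ccl11, the eosinophil attractant eotaxin, stood at 11.47, 6.15 and 7.16 at P32 and at 9.84, 8.53 and 9.31 at P60, so the P32 samples hold both the highest and the lowest values. Its difference was -1.63 in replicate 1 and 2.38 and 2.15 in the others.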
